A study of Mus musculus with 24 samples.

Results

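The genes of blood coagulation and fibrinolysis other than the fibrinogen chains were followed across 4 diets in mouse liver. They are a list of 38 genes chosen by name and function: the clotting factors, the contact system, the protein C and protein Z system, the inhibitors of the clotting proteases, the plasminogen system, the vitamin K cycle and a thrombin receptor. Of the 38 genes, 36 had a row among the 13686 genes of the count table, and 34 passed the filter on low counts and were tested among 11971 genes. F13a1 and Serpina5 had no row, and Plat and Plaur were below the filter.

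All samples were livers of male wild-type C57BL/6 mice, a common inbred strain, whose feed over 6 weeks was chow or a diet rich in cottonseed oil (here CSO), in olive oil (OO) or in safflower oil (SFO). Messenger RNA was counted with a QuantSeq kit, which reads 1 tag near the 3′ end of a transcript, so the counts are not scaled to gene length. The count table held 6 chow, 6 CSO, 6 OO and 5 SFO libraries, because the submitters left SFO sample 4 out as an outlier that might be contaminated. The labels give no composition for the diets. Beyond counting the samples as separate, they do not tie each to its own animal, so a p-value here reflects sample-to-sample spread that could be technical.

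Most clotting factors are made by hepatocytes and secreted as inactive proteases. Tissue factor starts the cascade through factor VII, the contact and intrinsic factors amplify it, and both routes meet at factor X and thrombin, which cuts fibrinogen into fibrin. Serpins and the protein C system hold these proteases in check, and plasmin, made from plasminogen, dissolves the clot.

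Library totals ran from 5428649 to 14930305 counts, and the listed genes took 2.63% to 3.35% of them. The hepatocyte markers (Alb, Ttr, Apoa1 and others, 7 of 8 in the table) summed to 113303 to 192846 CPM (a tag count relative to the scaled size of its library) across the libraries. Skeletal muscle markers (8 of 8 in the table) summed to 5.94 to 1998 CPM in chow, 2.15 to 716 in CSO, 0.534 to 11.6 in OO and 0.239 to 31.5 in SFO, with Pvalb at 0 in OO and SFO. The muscle gene Acta1 was above 100 CPM in 4 libraries, chow 3, 4 and 5 and CSO 1, and the counts of called genes over the list are also given without them. The part of muscle RNA in the results was not tested. In bulk liver, fewer cells of a type and less RNA per cell cannot be told apart.

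Few of the clotting genes passed the test, and every called change against chow was a rise. A gene was called where edgeR's quasi-likelihood test gave an adjusted p (Benjamini-Hochberg over 11971 genes) under 0.05. Against chow, OO livers had higher Serpinf2, Serpind1, Plg and Kng1, which is 4 of 34 genes where 2.64% of all tested genes were called. SFO livers had higher Serpina10, F11 and Serpinf2, which is 3 of 34 where 0.835% of all tested genes were called. In CSO 0 of 34 passed, against 0.409% of all tested genes, and DESeq2 and limma voom also called 0. At an unadjusted p under 0.05 edgeR counted 1 gene in CSO, Kng2, which had a log2 fold change of 0.35 ± 0.15 (SE). In OO and SFO the unadjusted counts were 16 and 6, DESeq2 called 5 and 3 (Habp2 added in OO) and limma voom 2 and 3. Over all tested genes 5.32%, 16.1% and 7.74% had an unadjusted p under 0.05 by edgeR in CSO, OO and SFO. Of all 11971 genes DESeq2 called 98, 686 and 187, and limma voom 215, 125 and 148. The 3 comparisons share the chow libraries. Without the 4 libraries with muscle transcripts, a fit with 3 chow libraries, 0 of 34 were called in each of the 3 comparisons, with 0, 7 and 5 genes at an unadjusted p under 0.05 in CSO, OO and SFO. In that fit the calls over all tested genes also fell, to 0.113%, 0.21% and 0.275%.

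Between the oils, Serpinf2 was the 1 gene called by edgeR in CSO against OO, where it was lower in CSO and 1.09% of all tested genes were called. There 13 genes had an unadjusted p under 0.05, DESeq2 called 4 (Habp2, Serpind1, Serpinf2, Tfpi2) and limma voom 2 (Serpinc1, Serpinf2). In CSO against SFO 0 were called by edgeR, with 0.493% of all tested genes called, 4 genes at an unadjusted p under 0.05, 2 calls by DESeq2 (Serpina10, Serpinf2) and 3 by limma voom (F11, Serpina10, Serpinf2). In SFO against OO 0 were called by edgeR, with 1.06% of all tested genes called, 10 genes at an unadjusted p under 0.05, 2 calls by DESeq2 (Plau, Serpina1a) and 0 by limma voom. In these 3 pairs, in that order, 14.7%, 7.69% and 15.3% of all tested genes had an unadjusted p under 0.05 by edgeR. Of all 11971 genes DESeq2 called 413, 123 and 462, and limma voom 110, 148 and 20. Without the 4 libraries with muscle transcripts edgeR called 0 of 34 in all 3 pairs of oils, with 13, 3 and 9 genes at an unadjusted p under 0.05, where 0.323%, 0.315% and 0.299% of all tested genes were called.

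**Figure D1:**
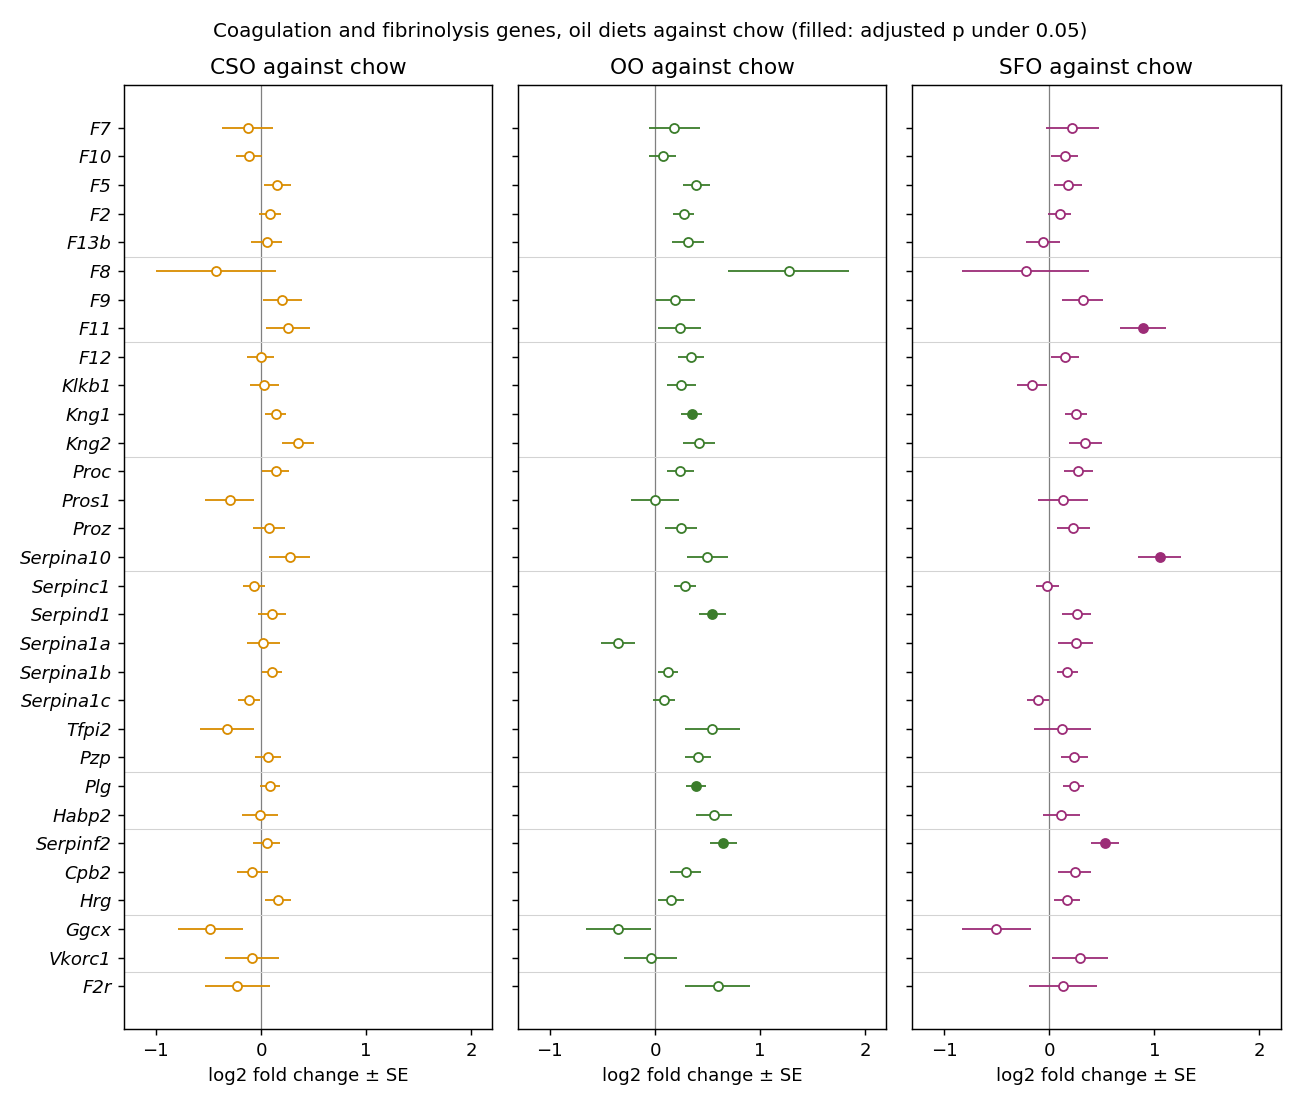
Log2 fold change ± SE of 31 of the 34 tested genes (the 3 least expressed, F3, Tfpi and Plau, are left out for their wide errors) in CSO, OO and SFO against chow, in role order with grey lines between roles. Filled points passed an adjusted p under 0.05, namely 0 genes in CSO, 4 in OO and 3 in SFO.

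As a list, the genes had a larger share of positive values in OO and SFO than all tested genes. The median log2 fold change over the 34 genes was 0.30 in OO with 30 genes positive, 0.18 in SFO with 26 positive and 0.05 in CSO with 20 positive. Over all tested genes the medians were 0.07, 0.01 and -0.02, with 54.4%, 51.1% and 48.0% of genes positive. The 7 hepatocyte markers had medians of 0.21 in OO, 0.09 in SFO and 0.01 in CSO, of the same sign as those of the clotting genes and smaller. Their positive shares, 6 of 7 in OO (85.7%), 5 of 7 in SFO (71.4%) and 4 of 7 in CSO (57.1%), lay near those of the clotting genes, 88.2%, 76.5% and 58.8%.

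The OO values depended on how the libraries were scaled. The TMM composition factor was 0.811 to 1.03 in OO libraries and 0.996 to 1.10 in chow. With library totals in place of TMM, the median of all genes in OO against chow moved by -0.19, from 0.07 to -0.12, and the median of the 34 genes moved with it from 0.30 to 0.11, with 26 genes positive. The distance between the genes and all genes was 0.23 with TMM and 0.22 with totals. Of all called genes in OO, 65.2% were higher with TMM and 27.7% with totals, and Serpinf2 was the 1 of the 34 still called. For CSO against OO the share of higher calls was 23.1% with TMM and 59.0% with totals, and for SFO against OO it was 25.2% and 58.9%. In SFO against chow it was 59.0% with TMM and 49.5% with totals, and F11, Serpina10 and Serpinf2 were called with both.

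**Figure D2:**
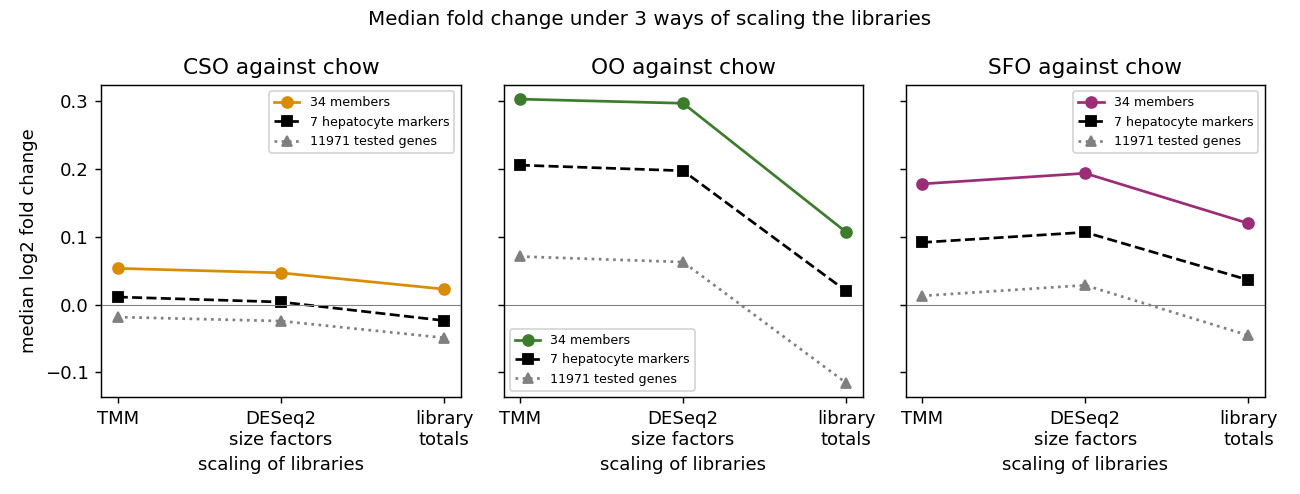
Median log2 fold change against chow (vertical axis) of the 34 tested genes, of 7 hepatocyte markers and of all 11971 tested genes under 3 ways of scaling the libraries (horizontal axis), 1 panel per oil. In OO all 3 medians are lower with library totals, and the distance between the 34 genes and all genes is 0.23 with TMM and 0.22 with totals.

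Serpinf2 encodes the main plasma inhibitor of plasmin, which slows the dissolving of clots, and it was the 1 gene on the list that was called in 2 oils against chow. Its level ran from 604 to 848 CPM in chow (median 698) and from 629 to 857 in CSO (median 722). In OO it ran from 826 to 1564 CPM (median 1071), and the 5 SFO libraries had 1242, 914, 1136, 1006 and 832. Of the OO libraries 5 of 6 lay above every chow library, and of the SFO libraries 4 of 5. Serpinf2 rose by 0.65 ± 0.13 (log2 fold change ± SE) in OO (adjusted p = 0.00306) and by 0.53 ± 0.14 in SFO (adjusted p = 0.0416), by edgeR's quasi-likelihood test. CSO lay -0.59 ± 0.13 from OO (adjusted p = 0.0112), and OO and SFO were not told apart (SFO over OO -0.12 ± 0.14, adjusted p = 0.724). Without the muscle-marked libraries the OO change was 0.54 (adjusted p = 0.206), the SFO change 0.43 (0.854) and CSO against OO -0.57 (0.0611). The SFO call was lost in 8 of the 11 fits that left out 1 library, with an adjusted p of up to 0.225, while the OO call was kept in all 12. With the replicate number as a block the SFO call was lost too (0.50, adjusted p = 0.0849).

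The 250 bases before the annotated start of Serpinf2 and of Serpind1, the 2 listed genes with the smallest adjusted p in OO, are shown from the RefSeq promoter table (build GRCm38.p6, read 5′ to 3′ on the gene's strand). Capitals mark CAAAGGTC in Serpinf2, a sequence to which nuclear receptors such as HNF4 bind in pairs and whose letters were chosen after the sequence was seen, and a match to the short C/EBP pattern TTNCNNAA on either strand in Serpind1.
Serpinf2, chr11:75439502-75439751, minus strand: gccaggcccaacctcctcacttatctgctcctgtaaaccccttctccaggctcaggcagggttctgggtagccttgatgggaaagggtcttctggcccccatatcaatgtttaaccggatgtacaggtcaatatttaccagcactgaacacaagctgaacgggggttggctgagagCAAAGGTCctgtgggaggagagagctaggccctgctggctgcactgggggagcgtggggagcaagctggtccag
Serpind1, chr16:17331121-17331370, plus strand: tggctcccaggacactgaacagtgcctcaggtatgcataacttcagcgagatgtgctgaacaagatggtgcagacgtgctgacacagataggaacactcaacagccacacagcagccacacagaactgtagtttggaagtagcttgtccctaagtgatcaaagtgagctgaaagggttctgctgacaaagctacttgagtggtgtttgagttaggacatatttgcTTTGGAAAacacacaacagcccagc
The Serpinf2 match starts at -74 and the Serpind1 match at -25, counted from the annotated start. On both strands, CAAAGGTC was found in 5 of 32 listed genes with a promoter entry (F12, F7, F9, Ggcx and Serpinf2), or 15.6%, and in 1.01% of all 32851 promoters. TTNCNNAA was in 17 of 32, or 53.1%, and in 36.8% of all. Of the other motifs planned beforehand, the HNF4 motif CAAAGTCCA, its core AAAGTCCA and the longer C/EBP pattern TTGCNNCAA were in 0 of 32 each. Over all promoters these were in 0.384%, 1.01% and 1.74%. The STAT motif TTCNNNGAA was in 2 of 32, or 6.25%, and in 7.02% of all. Listed genes were counted by gene, and all promoters by entry. A match describes the letters only.

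Plg, plasminogen itself, was among the steadiest genes on the list, with a within-diet SD of 0.138 on the log2 scale. It ran from 2517 to 3037 CPM in chow (median 2851) and from 2722 to 3145 in CSO (median 3017). In OO it ran from 2976 to 4266 (median 3679), and SFO libraries had 3561, 3005, 3466, 3452 and 3017. Every OO library but OO 5 lay above all chow libraries, whereas 2 SFO libraries fell within the chow range. Plg rose by 0.39 ± 0.10 in OO (edgeR adjusted p = 0.0198). With library totals its change was 0.19 (adjusted p = 0.230), without the muscle-marked libraries 0.33 (0.331), and without chow 4 0.36 (0.0611). The SFO value was 0.23 ± 0.10 (adjusted p = 0.496).

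The other genes of plasminogen activation and fibrinolysis gave no calls by edgeR. Habp2, a plasma protease that acts on factor VII and pro-urokinase, stood at 0.56 ± 0.17 in OO against chow (adjusted p = 0.0588), with 5 of 6 OO libraries above all chow libraries. In CSO against OO Habp2 was at -0.57 ± 0.17 (adjusted p = 0.0782). DESeq2 called Habp2 in both, with adjusted p of 0.0257 and 0.0280. Plau, which encodes urokinase, was read at 0 to 4.58 CPM in chow, 0 to 6.15 in CSO, 0 to 15.9 in OO and 0 to 0.569 in SFO, with libraries at 0 counts in all 4 diets. The tissue-type activator Plat did not exceed 6.14 CPM in any library, and the urokinase receptor Plaur had 0 counts in all 6 chow libraries and at most 5.26 CPM elsewhere. By edgeR none of the 6 comparisons of Plau passed, while DESeq2 called Plau in SFO against OO, and Plat and Plaur were not tested. Hrg, a plasma protein that binds plasminogen and heparin, ran from 857 to 1211 CPM in chow (median 941), 874 to 1318 in CSO (1096) and 860 to 1291 in OO (1082), and SFO libraries had 1237, 933, 1144, 1164 and 977. The 4 diets overlapped, with log2 fold changes of 0.16 ± 0.12 in CSO, 0.15 ± 0.12 in OO and 0.17 ± 0.13 in SFO. Cpb2, which trims fibrin so that plasminogen binds less, was at 0.29 ± 0.15 in OO and 0.24 ± 0.16 in SFO.

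Among the 8 inhibitors of the clotting proteases edgeR called Serpind1 alone. Serpind1 encodes heparin cofactor II, a thrombin inhibitor. It ran from 372 to 569 CPM in chow (median 485), 426 to 625 in CSO (523) and 622 to 805 in OO (704), and SFO libraries had 568, 497, 600, 474 and 759. All 6 OO libraries lay above all 6 chow libraries, which was true of Serpind1 and F5 on the list, 2 of 34, and of 0.977% of all tested genes in OO. Serpind1 rose by 0.55 ± 0.13 in OO (edgeR adjusted p = 0.0184). It was at 0.36 (adjusted p = 0.114) with library totals, 0.48 (0.0632) without chow 4 and 0.43 (0.356) without the muscle-marked libraries. CSO lay -0.44 ± 0.13 from OO (edgeR adjusted p = 0.0775, DESeq2 0.0375).

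Serpinc1, antithrombin, which inhibits thrombin and factor X, was at 0.28 ± 0.10 in OO (adjusted p = 0.127), -0.02 ± 0.11 in SFO and -0.07 ± 0.10 in CSO. CSO lay -0.35 ± 0.10 from OO (edgeR adjusted p = 0.0775), which limma voom called (0.0379). Tfpi2, an inhibitor of plasmin and of the tissue factor route, had every CSO library (41.3 to 52.4 CPM) below every OO library (58.8 to 130). This was true of 1 of 34 listed genes and of 76 of all 11971 tested genes. The log2 difference of -0.87 ± 0.26 missed the threshold by edgeR (adjusted p = 0.0775) and passed it by DESeq2 (0.0204). Tfpi, the main inhibitor of that route and largely an endothelial gene, was at most 16.1 CPM in any library, with errors over 1 on the log2 scale. Pzp, a broad protease inhibitor of the macroglobulin family, had the highest CPM of its role. It ran from 3013 to 5419 CPM in chow (median 4660), 3835 to 5476 in CSO (4559) and 4939 to 6333 in OO (6061), and SFO libraries had 5182, 3646, 7044, 5291 and 4843. Of the OO libraries 5 of 6 were above all chow libraries, and the change of 0.41 ± 0.12 missed the threshold (adjusted p = 0.0555), which it passed with the replicate number as a block (0.0312).

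Serpina1a, Serpina1b and Serpina1c are copies of the antitrypsin gene, an inhibitor of elastase and other proteases. Their separate counts are uncertain, since the last 300 bases of Serpina1a to Serpina1e were 92.4% to 96.3% identical between pairs. The 100 bases before their starts are shown to let the copies be compared, with the HNF1 core GTTAAT in capitals (RefSeq, GRCm38.p6).
Serpina1a, chr12:103863620-103863719, minus strand: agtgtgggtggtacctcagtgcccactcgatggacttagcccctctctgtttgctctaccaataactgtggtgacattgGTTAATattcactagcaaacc
Serpina1b, chr12:103738190-103738289, minus strand: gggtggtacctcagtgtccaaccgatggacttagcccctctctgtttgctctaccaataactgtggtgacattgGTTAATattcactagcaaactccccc
Serpina1c, chr12:103904951-103905050, minus strand: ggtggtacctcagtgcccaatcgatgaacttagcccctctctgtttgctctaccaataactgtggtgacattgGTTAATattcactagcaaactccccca
The HNF1 core starts at -21, -26 and -27, and aligned over the 250 bases before the start the copies were 91.6% to 95.9% identical. GTTAAT was in 8 of 32 listed genes with a promoter entry, or 25.0%, and in 6.43% of all promoters. No copy was called against chow. Serpina1a was lower than chow in OO by the fitted value (-0.35 ± 0.16, adjusted p = 0.252) while Serpina1b (0.12 ± 0.10) and Serpina1c (0.08 ± 0.10) were near it. In SFO against OO every SFO library of Serpina1a was above every OO library, at 0.60 ± 0.17 (adjusted p = 0.0542), and Serpina1a was called there by DESeq2 (0.0176) and with library totals. Such a separation of SFO above OO was found in 1 of 34 listed genes and in 64 of all 11971 tested genes.

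In the contact and kallikrein-kinin system Kng1 was called in OO. Kng1 encodes kininogen, the source of bradykinin and the carrier of prekallikrein and factor XI. It ran from 1983 to 2514 CPM in chow (median 2183), 2099 to 2726 in CSO (2471) and 2349 to 3381 in OO (2865), and SFO libraries had 2644, 2999, 2729, 2335 and 2649. The groups overlapped, with 4 of 6 OO libraries above all chow libraries. Kng1 rose by 0.35 ± 0.10 in OO (edgeR adjusted p = 0.0482), and the call was lost in 14 of 21 other settings, over all of which the value ran from 0.16 to 0.40. Its neighbour and copy Kng2, whose last 300 bases were 96.4% identical to those of Kng1, was at 0.42 ± 0.15 in OO, 0.35 ± 0.15 in CSO and 0.34 ± 0.16 in SFO, none called, so the counts of the 2 genes are uncertain. F12, factor XII, which starts the contact route, was at 0.34 ± 0.13 in OO (adjusted p = 0.135).

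F11, factor XI, which activates factor IX, rose in SFO. F11 ran from 89.9 to 124 CPM in chow (median 104), 72.8 to 165 in CSO (141) and 66.3 to 180 in OO (123). The 5 SFO libraries had 172, 216, 197, 202 and 190 CPM. All 5 lay above every chow library and every CSO library, and 4 of 5 above every OO library. Every CSO library was below every SFO library in 1 of 34 listed genes and in 63 of all 11971 tested genes. With Serpina10, F11 was 1 of 2 of the 34 genes with every SFO library above every chow library, which was true of 0.677% of all tested genes. In CSO the count of genes with every library above every chow library was 0 of 34, against 0.86% of all tested genes. F11 rose by 0.89 ± 0.22 in SFO (edgeR adjusted p = 0.0285) and stood at 0.25 ± 0.21 in CSO and 0.23 ± 0.21 in OO. SFO over OO was 0.66 ± 0.22 (adjusted p = 0.117) and CSO over SFO -0.63 ± 0.22 (0.301). The SFO value was 0.97 without the muscle-marked libraries (adjusted p = 0.284), and 7 of the 11 fits that left out 1 library lost the call, with fold changes of 0.85 to 0.95.

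Klkb1, which encodes prekallikrein, is the next gene to F11 and related to it, but their last 300 bases were 48.6% identical, so their counts are separable. Klkb1 was at -0.16 ± 0.14 in SFO (adjusted p = 0.922) and ran from 261 to 408 CPM there, against 317 to 452 in chow. The count of F11 relative to that of Klkb1 in the same library, a quantity chosen after the values were seen and not tested, was 0.225 to 0.390 in chow, 0.201 to 0.427 in CSO, 0.161 to 0.437 in OO and 0.483 to 0.726 in SFO. The lowest SFO library was above the highest library of the other diets. The 250 bases before the starts of these neighbours are shown (RefSeq, GRCm38.p6), with TTNCNNAA matches on either strand in capitals.
F11, chr8:45262032-45262281, minus strand: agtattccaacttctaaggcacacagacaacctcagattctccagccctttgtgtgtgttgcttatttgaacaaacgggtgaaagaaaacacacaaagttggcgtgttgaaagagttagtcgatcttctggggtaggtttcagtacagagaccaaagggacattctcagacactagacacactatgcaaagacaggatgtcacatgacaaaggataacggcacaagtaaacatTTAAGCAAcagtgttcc
Klkb1, chr8:45294836-45295085, minus strand: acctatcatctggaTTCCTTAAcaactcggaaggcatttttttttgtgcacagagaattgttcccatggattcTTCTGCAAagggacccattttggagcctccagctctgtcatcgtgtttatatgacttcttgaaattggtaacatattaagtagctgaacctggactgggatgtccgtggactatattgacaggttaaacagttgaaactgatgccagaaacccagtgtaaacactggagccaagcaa
The F11 match starts at -17 and the Klkb1 matches at -236 and -177.

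**Figure D3:**
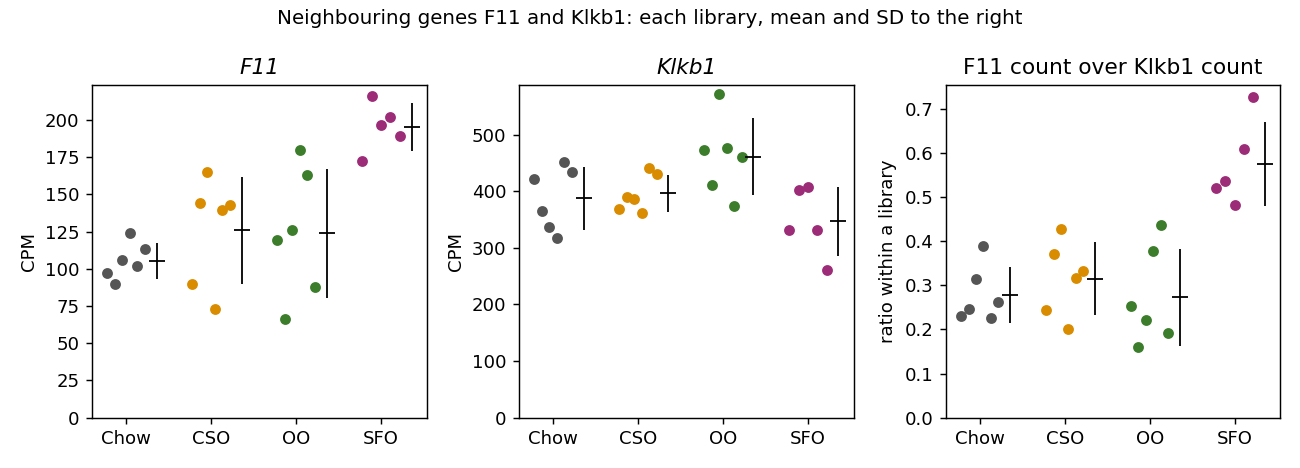
CPM of F11 and of its neighbour Klkb1, and the count of F11 over that of Klkb1 within each library, by diet. Points are libraries, and the bar beside them is the mean ± SD (n = 6, and 5 for SFO); the SFO ratios of 0.483 to 0.726 lie above all others, of which the highest is 0.437.

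The remaining intrinsic factors were not called. F9, factor IX, ran from 104 to 217 CPM in chow (median 138), 148 to 186 in CSO (173) and 123 to 243 in OO (157), and SFO libraries had 191, 118, 197, 193 and 228. All diets overlapped, with log2 fold changes of 0.20 ± 0.19, 0.19 ± 0.19 and 0.32 ± 0.19 in CSO, OO and SFO. F8, factor VIII, largely an endothelial gene, was low and spread widely, at 8.88 to 20.5 CPM in chow and 9.88 to 81.3 in OO. Its value of 1.27 ± 0.58 in OO was not called (adjusted p = 0.255), and sinusoidal endothelial markers (8 of 8 in the table, none at 0) summed to 215 to 282 CPM in chow and 102 to 397 in OO, whose part in the F8 value was not tested.

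In the protein C and protein Z system Serpina10 had the largest called change of the list. Serpina10 encodes the protein Z-dependent inhibitor of activated factor X. It ran from 138 to 223 CPM in chow (median 168), 119 to 266 in CSO (216) and 154 to 399 in OO (225). The SFO libraries had 483, 301, 338, 392 and 237 CPM, all above every chow library but overlapping OO. Serpina10 rose by 1.05 ± 0.21 in SFO (edgeR adjusted p = 0.00237), a call kept in each of the 11 fits that left out 1 library and with library totals (0.996, adjusted p = 0.00631). Without the muscle-marked libraries it was 0.88 (adjusted p = 0.310). OO was at 0.50 ± 0.20 (adjusted p = 0.169) and CSO at 0.27 ± 0.20, and CSO lay -0.78 ± 0.21 from SFO (adjusted p = 0.0692).

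The other genes of the protein C and protein Z system were not called. Proz, protein Z, the cofactor of Serpina10, was at 0.23 ± 0.16 in SFO. The count of Serpina10 relative to Proz in a library was 0.586 to 0.943 in chow and 1.16 to 1.74 in SFO, with CSO reaching 1.17 and OO 1.27; this ratio too was chosen after the values were seen. Proc, protein C, the protease that inactivates factors V and VIII, ran from 558 to 709 CPM in chow (median 592), 531 to 867 in CSO (656) and 547 to 886 in OO (753), and SFO libraries had 662, 931, 635, 691 and 757. Its log2 fold changes were 0.14 ± 0.13, 0.24 ± 0.13 and 0.28 ± 0.14 in CSO, OO and SFO, none called. Pros1, its cofactor protein S, was at -0.30 ± 0.23, 0.00 ± 0.23 and 0.13 ± 0.24.

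**Figure D4:**
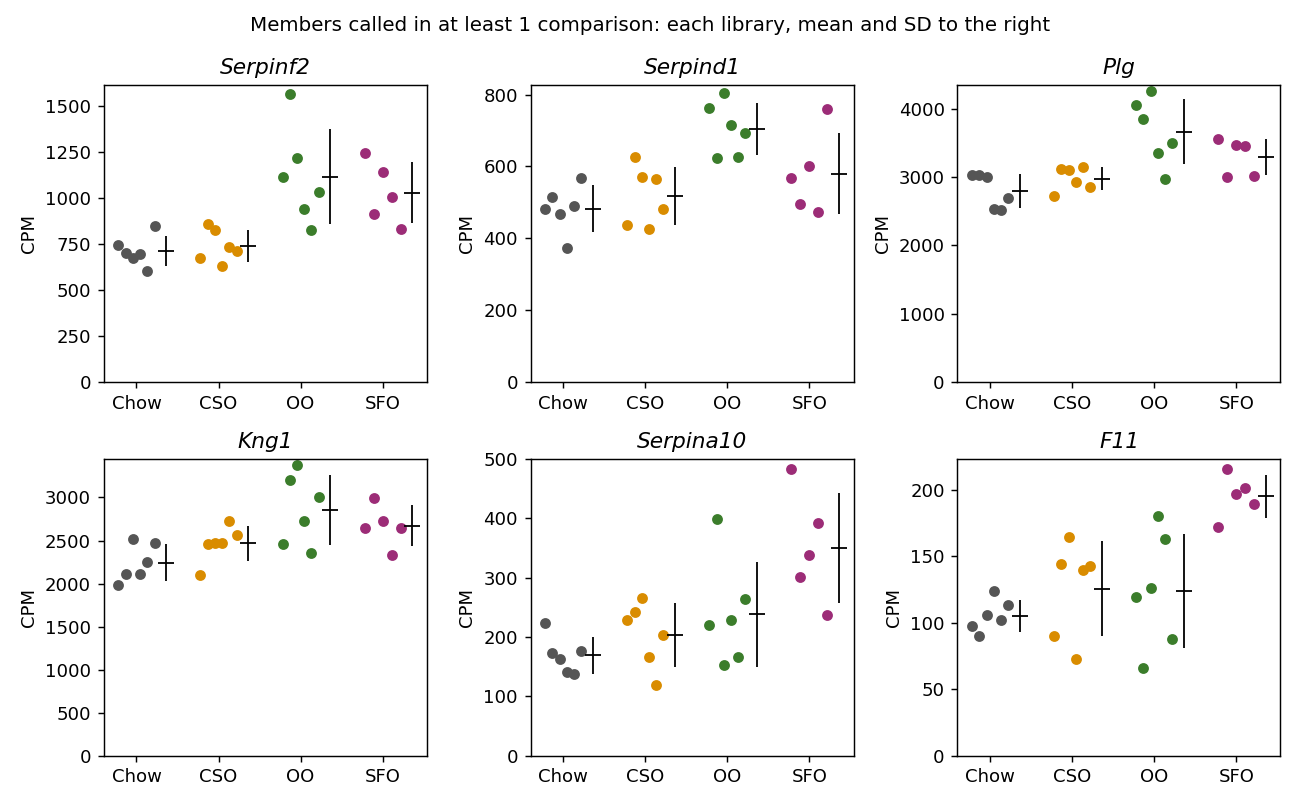
CPM in each library of the 6 genes called in at least 1 comparison, by diet; the bar beside the points is the mean ± SD (n = 6, and 5 for SFO). All OO points of Serpind1 and all SFO points of F11 and Serpina10 are above the chow points, while Serpinf2, Plg and Kng1 overlap with chow.

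The extrinsic and common pathway gave 0 calls in all 6 comparisons by edgeR, DESeq2 and limma voom. In OO against chow 3 of 6 genes had an unadjusted p under 0.05 by edgeR, as did 16.1% of all tested genes. F2, prothrombin, ran from 1796 to 2204 CPM in chow (median 1931), 1811 to 2391 in CSO (2063) and 1850 to 2696 in OO (2427), and SFO libraries had 1908, 2241, 2333, 1886 and 2183. Of these OO values the lowest, OO 5, was within the chow range, and the fold change of 0.27 ± 0.10 was not called (adjusted p = 0.129). F5, factor V, the cofactor of factor X, had all OO libraries (870 to 1031 CPM) above all chow libraries (567 to 781), at 0.39 ± 0.13 (adjusted p = 0.0731). F7, F10 and F13b were at 0.18 ± 0.24, 0.07 ± 0.12 and 0.31 ± 0.15 in OO. F3, tissue factor, was at most 21.9 CPM in any library, at 0.71 ± 0.82 in OO.

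The vitamin K cycle serves the carboxylation of prothrombin and factors VII, IX and X. Its genes and its 7 substrates on the list gave 0 calls by edgeR, DESeq2 and limma voom. An unadjusted p under 0.05 by edgeR was found for 0, 1 and 0 of the 7 substrates in CSO, OO and SFO against chow. Over all tested genes the shares were 5.32%, 16.1% and 7.74%. Vkorc1, the warfarin target that recycles vitamin K, ran from 64.5 to 122 CPM in chow (median 76.0), 63.4 to 90.7 in CSO (74.6) and 39.7 to 122 in OO (75.6), and SFO libraries had 88.7, 118, 147, 97.7 and 42.5. The 4 diets overlapped. Ggcx, the carboxylase, was at -0.48 ± 0.31, -0.35 ± 0.31 and -0.50 ± 0.33 in CSO, OO and SFO. The thrombin receptor F2r, a gene of endothelial and mesenchymal cells more than of hepatocytes, ran from 24.4 to 48.2 CPM in chow (median 45.8), 19.9 to 53.4 in CSO (34.4) and 25.6 to 101 in OO (62.4), and SFO libraries had 57.6, 27.3, 42.6, 38.1 and 61.2. It was at 0.60 ± 0.31 in OO (adjusted p = 0.338). Stellate and fibroblast markers (8 of 8 in the table, none at 0) summed to 308 to 575 CPM in chow and 343 to 649 in OO, and their part in the F2r value was not tested.

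The count of calls in OO moved most with OO library 5. This library had the lowest OO value in 12 of the 34 genes, among them Serpinf2, Plg, Kng1, F2, Proc and Pzp, and the highest in 3, Hrg, Vkorc1 and Ggcx. Its composition factor of 1.03 was the highest in OO, where the others ran from 0.811 to 0.974. Without OO 5 the count in OO against chow was 8 of 34 (F12, F2, Habp2, Kng1, Plg, Pzp, Serpind1 and Serpinf2), where the share of all tested genes rose from 2.64% to 3.95%. In CSO against OO it was 3 (Plg, Serpinc1 and Serpinf2), where that share rose from 1.09% to 2.18%. OO library 3 had the highest OO value in 12 of the 34 genes and the lowest in 5, with a composition factor of 0.811. Without OO 3 the count in OO against chow was 3, with 1.45% of all tested genes called. Without chow 4, the library with most Acta1, the count in OO against chow was 1 (Serpinf2) with 1.22% of all tested genes called, and without chow 5 it was 2 (Serpind1 and Serpinf2) with 1.39%. In SFO against chow, Serpina10 alone was called without any 1 of chow 1, 2, 3 or 5 or SFO 3 or 5. In those fits 0.481% to 0.722% of all tested genes were called, against 0.835% with all libraries.

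Other genes of the pathway moved in part alongside. Of 30 further coagulation and fibrinolysis genes 24 were tested, and edgeR called 0 in CSO, 2 in OO and 1 in SFO, all rises. Over all tested genes 0.409%, 2.64% and 0.835% were called. Counts at an unadjusted p under 0.05 by edgeR were 5, 8 and 4 of 24, against 5.32%, 16.1% and 7.74% of all tested genes. DESeq2 called 0 in CSO, 4 in OO (Asgr1, Fgl1, Lrp1, Serping1) and Fgl1 in SFO. Limma voom called 2 in CSO (Fgl1, Serpina1e), 2 in OO (Serpina1e, Serping1) and Fgl1 in SFO. Mean Serpina1e was lower in CSO (7221 CPM) and OO (7630) than in chow (12383), and it was 14313 in SFO. Serping1, the C1 inhibitor, which blocks the contact proteases, rose by 0.62 ± 0.12 in OO (edgeR adjusted p = 0.00105), a call kept in all 21 other settings. Lrp1, a receptor that clears protease-inhibitor complexes, rose by 0.45 ± 0.12 in OO (adjusted p = 0.0335), and CSO lay -0.49 ± 0.12 from OO (0.0349), but the OO call was lost in 11 of 21 other settings. Fgl1, a fibrinogen-related secreted protein, rose by 1.97 ± 0.37 in SFO (adjusted p = 0.00905). The fibrinogen chains Fga, Fgb and Fgg rose in SFO by 0.86 ± 0.14, 0.94 ± 0.12 and 0.94 ± 0.12, so that in SFO the median of the 34 genes, 0.18, lay under all 3 chains. In OO Fgb rose by 0.49 ± 0.12 and Fgg by 0.46 ± 0.12, and Fga was at 0.42 ± 0.14 (adjusted p = 0.0795). Without the muscle-marked libraries Serping1 in OO and Fgb and Fgg in SFO were still called. The calls of Lrp1 in OO (adjusted p = 0.317), Fgl1 in SFO (0.364), Fga in SFO (0.0556), and Fgb (0.373) and Fgg (0.340) in OO were lost there. Of 8 tested hepatocyte transcription factors, among them Hnf4a, edgeR, DESeq2 and limma voom called 0 in all 6 comparisons, with 1, 0 and 0 at an unadjusted p under 0.05 in CSO, OO and SFO against chow.

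In the authors' deposited tables, whose sign was turned to oil over chow, 0, 5 and 3 of the listed genes had an adjusted p under 0.05 in CSO, OO and SFO. These were Habp2, Kng1, Plg, Serpind1 and Serpinf2 in OO and F11, Serpina10 and Serpinf2 in SFO. Of all 13686 genes in the authors' tables, 98, 683 and 205 passed that threshold in CSO, OO and SFO. Habp2 is the 1 gene called in the authors' deposited table and not by edgeR, at 0.55 with an adjusted p of 0.0261.

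The clotting genes with a mean of at least 100 CPM had a lower median spread within a diet than all tested genes above that floor. This is a description without a test, and the 2 sets were not matched for mean CPM above the floor. These 24 clotting genes had a median within-diet SD of 0.211 on the log2 scale, against 0.310 over all 1424 tested genes of at least 100 CPM. Serpina1b (0.132), Plg (0.138), F10 (0.146) and F2 (0.146) were the steadiest, and Serpina10 (0.400) and F11 (0.377) varied most among the 24. The 10 clotting genes below 100 CPM had a median SD of 0.618, with F8, F3, Tfpi and Plau all above 1. Over all 10547 tested genes below 100 CPM it was 0.852.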

How the data were processed

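Liver RNA of 23 libraries was analysed from a table of raw counts per gene that the authors deposited. Per the submitters' processing notes, Trimmomatic, STAR 2.7.1a, HTSeq 0.9.1, DESeq2 and DESeq were used with build mm39; whether counting used strand is not stated in the sources used here. The authors' deposited tables of chow against each oil hold log2 fold changes and p-values.

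Counts were fitted in R 4.3.3 with edgeR 4.0.16 (filterByExpr, TMM, robust quasi-likelihood F test, diet as the only term, all libraries together), and 6 comparisons were tested, with Benjamini-Hochberg adjustment over 11971 genes and a threshold of 0.05. The tested genes hold 99.9% of the counts. CPM are scaled by TMM. Library totals of 5428649 to 14930305 counts leave genes of a few CPM imprecise. The procedure was tested on simulated data.

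The members and lists were chosen with earlier results of these data known. Genes called in any comparison, and each role's gene of highest mean CPM, are given by range and median in chow, CSO and OO. Their values in SFO are given for each library, and the called genes are also drawn by library. The other genes are given by range and counts. Alternatives were DESeq2 1.42.0 (size factors, Wald test), library totals, limma 3.58.1 voom with quality weights, 2 other filters, only the 2 diets compared, a replicate block, each library left out, and, chosen after seeing the data, no libraries with Acta1 over 100 CPM. Promoters came from RefSeq (GRCm38.p6), with entries for 32 of 38 genes; 3′ ends came from GENCODE M21 transcripts. No protein sequences were used here. SFO sample 4 was not analysed here.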

Additional observations from a re-analysis of the deposited data

Results flagged for a closer look

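In 13 of 143 groups of libraries, or 9.09%, 1 library stood far from the rest of its diet, by a limit that chance passes in about 1 in 20 groups of normally spread values. Lowest in their diet were F5 in chow 4 (567 CPM) and Ggcx in chow 3 (42.1). Highest were Hrg in chow 2 (1211), Serpina1b in OO 3 (3778), Habp2 in CSO 2 (237), Vkorc1 in chow 5 (122) and Tfpi in OO 1 (16.1). The other 6 were in genes with libraries at 0 counts in all 4 diets, to which that rate does not apply: Plat in chow 2 (6.14) and OO 4 (0.748), Plau in chow 4 (4.58) and CSO 1 (6.15), and Plaur in CSO 5 (5.26) and OO 5 (0.558).

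The effects of 2 oils differed by edgeR's quasi-likelihood test, as log2 fold changes, for Serpinf2 in CSO against OO (-0.59), Lrp1 in CSO against OO (-0.49), Fga in CSO against SFO (-0.88), Fgb in CSO against SFO (-0.87), and Fgg in CSO against OO (-0.52), in CSO against SFO (-0.998) and in SFO against OO (0.48).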

How the results depend on the processing

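Of 638 refits of single-gene results under other settings, 522 kept direction and side of the threshold, 92 fell below it, 24 passed it and 0 reversed. The count of called clotting genes was 4, 3 and 0 in OO, SFO and CSO against chow and 1, 0 and 0 in CSO against OO, CSO against SFO and SFO against OO. With library totals it was 1 in OO against chow, 0 in CSO against OO and 1 in SFO against OO. There 1.87%, 0.693% and 0.468% of all tested genes were called. DESeq2's Wald test gave 4 clotting genes in CSO against OO, 2 in CSO against SFO and 2 in SFO against OO. Limma voom gave 2 in OO against chow, 2 in CSO against OO and 3 in CSO against SFO. Fitting only the 2 diets compared gave 2 in OO against chow and 1 in CSO against SFO. Over all genes tested there, 122 of 10419 and 91 of 10934 were called. A setting without the 4 libraries with Acta1 over 100 CPM was chosen after seeing the data and leaves 3 chow libraries. It gave 0 clotting genes in OO against chow, 0 in SFO against chow and 0 in CSO against OO. Leaving out 1 library gave 1 to 8 clotting genes in OO, 1 to 3 in SFO and 0 to 0 in CSO against chow. Over all tested genes 1.22% to 3.95%, 0.481% to 0.722% and 0.185% to 0.378% were called there. Between oils it gave 1 to 3 in CSO against OO, 0 to 1 in CSO against SFO and 0 to 1 in SFO against OO. For these pairs the shares of all tested genes were 0.522% to 2.18%, 0.252% to 0.627% and 0.253% to 2.01%. The mean over libraries of the listed genes' median log2 CPM differed by 0.22 in OO against chow and -0.10 in CSO against OO. With library totals it differed by 0.0338 and 0.0585. Over 1 library left out the difference ran from 0.19 to 0.27 and from -0.15 to -0.07. The cause of these changes was not tested. Whether replicate numbers pair the samples is not in the labels. With each diet's mean per gene subtracted, same-numbered libraries of 2 diets correlated at -0.171 to 0.152 over the 2000 most abundant genes. Differently numbered libraries were not compared, so this cannot decide on pairing. The replicate block gave 4, 2 and 0 calls of listed genes in OO, SFO and CSO against chow and 1, 0 and 0 between oils. Of all 11971 tested genes it called 208, 91 and 52 against chow and 122, 63 and 77 between oils. With the block, by edgeR, Kng1 was lost (adjusted p = 0.0664) and Pzp gained (0.0312) in OO, and Serpinf2 was lost in SFO (0.0849). Listed genes below 100 CPM had a median within-diet SD of 0.618 on the log2 scale, against 0.211 for those of at least 100 CPM. The cause of this spread was not tested.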
